A study of Mus musculus with 18 samples.

Results

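The adipocyte genes of the mouse colon were read as a set of 34 genes out of 35976 gene rows in the table of 18 libraries. The members were named by symbol, by a rule that sets no threshold on their values but with earlier results of these data known, and every symbol was found once in the table. They cover secreted proteins of fat cells, the coat of the lipid droplet, lipolysis, fatty acid uptake, triglyceride synthesis, transcription factors, and a few receptors and enzymes.

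Bulk RNA was sequenced from pieces of mouse colon collected on day 2, with 6 libraries in each of 3 groups. Sham mice were not given colitis. The vehicle group consisted of mice with colitis raised by TNBS, a hapten that inflames the colon, and given vehicle. In the ISM012-042 group mice with the same TNBS colitis were given ISM012-042, which the series title describes as a PHD inhibitor acting in the gut. PHD enzymes are oxygen sensors that label hypoxia-inducible factor for destruction. The sources used here do not give strain, sex, age, dose or any genetic change. The labels do not say whether each library of a group is a separate animal, and a p-value then reflects only how far these libraries spread.

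Adipocytes store triglyceride in a large lipid droplet and release fatty acids from it by stepwise hydrolysis. They secrete hormones such as adiponectin and leptin, and their identity is maintained by the transcription factors PPARγ and C/EBPα. The colon itself is attached to the mesentery, which carries fat along the bowel wall, while its epithelium and capillaries also use several of the same lipid genes. The labels do not say whether mesenteric fat was left on the pieces of colon. In bulk tissue fewer cells of a type and less RNA per cell cannot be told apart.

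Values are TPM, the share of transcripts after division by gene length, and levels can be compared between genes. The summed TPM of the 34 members lay between 501 and 6273 in sham (median 781), between 593 and 5272 in vehicle (median 1710) and between 827 and 7054 in ISM012-042 (median 4152). Between 12681 and 14632 genes reached a TPM of 1 in a library, and 13 mitochondrial genes took 20.1% to 57.8% of all TPM, which lowers every other value in the same library. Hoxb13, a homeobox gene of the distal bowel, lay between 9.05 and 288 TPM in sham, between 1.52 and 179 in vehicle and between 0.329 and 219 in ISM012-042, so libraries differed widely in it within each group. The epithelial gene Epcam lay between 576 and 1460 TPM in all 18 libraries. With limma on log2(TPM + 1), 46 genes rose and 584 fell in vehicle against sham, and 77 rose and 123 fell in ISM012-042 against sham. Under median-ratio scaling these splits were 511 to 1004 and 144 to 628, and with the mitochondrial genes left out they were 403 to 905 and 729 to 398.

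Among the secreted products, Adipoq, which encodes adiponectin (chromosome 16, 23146536 to 23157968, GRCm38.p6), ran from 0 through a median of 3.98 to 298 TPM in sham. In vehicle its lowest, median and highest TPM were 0.078, 42.8 and 197, and in ISM012-042 they were 12.4, 111 and 287. The 3 groups overlapped, sham replicates 3 and 4 were listed at 0, vehicle replicates 1 and 2 were close to 0, and the highest of all 18 values was in sham replicate 6. Cfd, which encodes the complement protease adipsin (chromosome 10, 79890853 to 79892655), had lowest, median and highest TPM of 0.1, 13.4 and 772 in sham, 0, 129 and 855 in vehicle, and 33.6, 294 and 715 in ISM012-042. Retn, which encodes the hormone resistin (chromosome 8, 3655770 to 3659818), was at 0, 4.37 and 219.995 TPM in sham, 0, 27.3 and 174 in vehicle, and 7.85, 80.7 and 160.4 in ISM012-042. For both genes the highest sham library, replicate 6, stood above the median of either colitis group, and no ISM012-042 library was near 0. Lep, which encodes leptin (chromosome 6, 29060221 to 29073876), was far lower, with 0, 0.083 and 5.74 TPM in sham, 0, 1.09 and 3.33 in vehicle, and 0.346, 2.55 and 9.29 in ISM012-042. Apoc1, an apolipoprotein gene, lay between 4.16 and 49.7 TPM over all libraries and was listed at 0 in none.

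**Figure D1:**
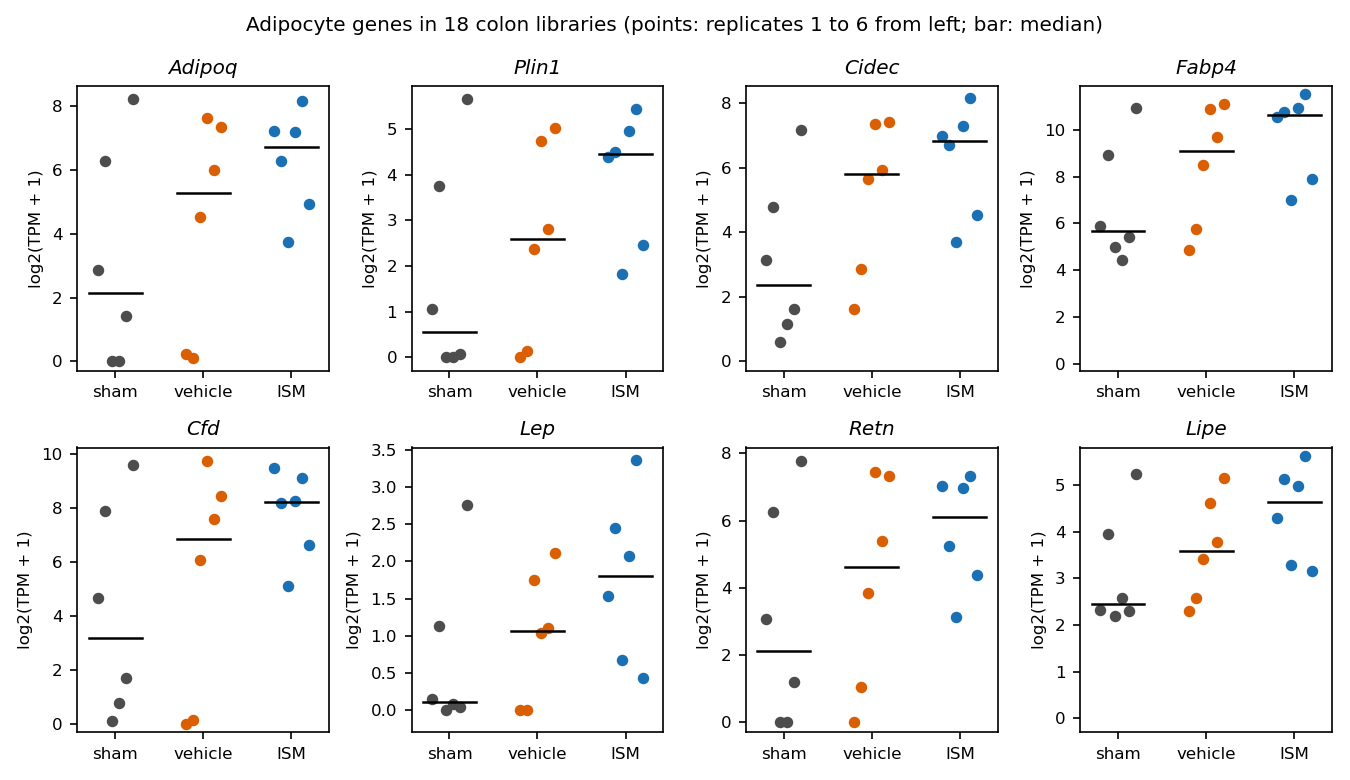
Level of 8 adipocyte genes as log2(TPM + 1) on the vertical axis in sham, vehicle and ISM012-042 (ISM), 1 point per library in replicate order and a bar at the group median. The groups overlap for each gene. For Adipoq sham replicate 6, the rightmost sham point, is the highest sham library at 298 TPM, followed by sham replicate 2 at 76.4 TPM.

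The genes of the lipid droplet coat fell into very different ranges. Plin1, the perilipin of the adipocyte droplet that controls access of lipases (chromosome 7, 79721164 to 79732904), had lowest, median and highest TPM of 0, 0.559 and 49.6 in sham. Its values were 0, 5.12 and 31.3 TPM in vehicle and 2.555, 20.8 and 42.7 TPM in ISM012-042. Plin1 was listed at 0 in 3 libraries, sham replicates 3 and 4 and vehicle replicate 1. Cidec, which encodes a protein that lets droplets fuse and grow (chromosome 6, 113424634 to 113435760), had 0.522, 4.91 and 143 TPM in sham, 2.095, 54.8 and 169.8 in vehicle, and 12.05, 114 and 285 in ISM012-042. All 6 ISM012-042 libraries exceeded 4 of the 6 sham libraries in Cidec, and the groups overlapped through sham replicates 2 and 6. Plin4, another perilipin, lay between 0.896 and 43.5 TPM over all libraries. Plin2, the perilipin found on droplets of most cell types, was never below 55.1 TPM and reached 247, and its highest library was vehicle replicate 2, in which Adipoq was 0.078 TPM. Cidea, a relative of Cidec that is abundant in brown fat, lay between 0 and 1.56 TPM and did not pass the filter of a TPM of at least 1 in 6 libraries.

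The promoters of Adipoq, Plin1 and Cfd are shown as examples of members whose levels varied together between libraries. They run from 250 bases before to 50 bases after the annotated start, in RefSeq on GRCm38.p6, 5′ to 3′ on the gene's strand: chr16:23146286-23146585 (plus) for Adipoq, chr7:79732727-79733026 (minus) for Plin1 and chr10:79890603-79890902 (plus) for Cfd. For Plin1 the annotated start used here lies inside the gene span given above, not at its upstream end, 79732904. Capitals mark matches, on either strand, to the PPAR hexamer AGGTCA, the C/EBP core TTGCNNAA, the TATA box TATAAA or the CCAAT box CCAAT.
Adipoq: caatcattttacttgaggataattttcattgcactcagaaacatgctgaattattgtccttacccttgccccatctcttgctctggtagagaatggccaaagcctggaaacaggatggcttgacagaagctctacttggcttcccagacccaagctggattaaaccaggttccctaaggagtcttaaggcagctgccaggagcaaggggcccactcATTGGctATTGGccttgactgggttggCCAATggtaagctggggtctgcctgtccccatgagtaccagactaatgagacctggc
Plin1: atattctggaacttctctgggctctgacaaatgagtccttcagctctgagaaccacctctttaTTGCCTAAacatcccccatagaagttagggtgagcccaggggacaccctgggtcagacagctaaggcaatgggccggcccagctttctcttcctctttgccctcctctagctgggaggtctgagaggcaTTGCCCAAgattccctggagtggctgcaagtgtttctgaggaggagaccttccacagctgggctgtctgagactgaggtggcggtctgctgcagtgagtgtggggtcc
Cfd: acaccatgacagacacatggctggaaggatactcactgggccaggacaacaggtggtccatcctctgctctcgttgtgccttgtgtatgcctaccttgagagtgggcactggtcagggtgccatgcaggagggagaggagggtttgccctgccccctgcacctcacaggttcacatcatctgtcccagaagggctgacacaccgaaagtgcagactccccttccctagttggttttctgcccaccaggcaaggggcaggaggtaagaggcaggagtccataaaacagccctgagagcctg
Adipoq held 3 CCAAT matches, 2 of them read as ATTGG on this strand. Plin1 held 2 matches to the C/EBP core, and in Cfd none of these letters occurred in the window. No 2 matches overlapped in the sequences shown. Of the 34 members 22 were in the promoter table. The PPAR hexamer occurred in 4 of the 22 and in 16.3% of all 32851 promoters, the C/EBP core in 2 (Lep and Plin1) and in 10.8%, the TATA box in 1 (Cebpa) and in 13.6%, and the CCAAT box in 6 and in 37.4%. Such matches describe the letters and show no binding.

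Apart from Pnpla3, the lipases and their partners were above a TPM of 1 in every library. Lipe, the hormone-sensitive lipase (chromosome 7, 25379527 to 25398486), had lowest, median and highest TPM of 3.55, 4.47 and 36.6 in sham, 3.90, 11.1 and 34.3 in vehicle, and 7.92, 24.5 and 48.4 in ISM012-042. Its floor was well above 0 also in the libraries in which Adipoq was listed at 0. Pnpla2, the adipose triglyceride lipase that starts lipolysis, lay between 37.4 and 154 TPM, and Mgll, the monoglyceride lipase that ends it, between 8.85 and 94.3 TPM. Pnpla3, a close relative of Pnpla2, lay between 0.076 and 9.57 TPM and reached a TPM of 1 in 9 of 18 libraries.

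G0s2, which encodes a protein that inhibits the Pnpla2 lipase (chromosome 1, 193272160 to 193273188), had an order of libraries of its own. Its lowest, median and highest TPM were 1.83, 3.28 and 11.3 in sham, 7.83, 20.2 and 198 in vehicle, and 4.82, 13.2 and 55.6 in ISM012-042. The highest values were those of vehicle replicate 2 and ISM012-042 replicate 2. These were also the libraries with the most S100a8, a neutrophil gene, at 12002 and 2993.9 TPM, while vehicle replicate 2 had almost no Adipoq. The 10 neutrophil markers were detected in all groups, with summed TPM of 36.7 to 723 in sham, 204 to 28034 in vehicle and 98.8 to 7529 in ISM012-042. Of the 10 markers 4 rose in vehicle against sham, where 46 of all 14129 genes did. Most of the sham sums came from Ly6g, which lay between 27.3 and 705 TPM in sham, 11.2 and 447 in vehicle, and 4.02 and 372 in ISM012-042. The other 9 markers summed to 9.35 to 29.1 TPM in sham, 193 to 27625 in vehicle and 47.7 to 7157 in ISM012-042. Their part in the G0s2 values was not tested.

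Among the genes of fatty acid uptake, Fabp4, the fatty acid binding protein of adipocytes that capillary endothelium and macrophages also make (chromosome 3, 10204342 to 10208616), had the highest median of all members over the 18 libraries, 425 TPM. It had lowest, median and highest TPM of 20.5, 50.1 and 1943 in sham, 28.1, 593 and 2219 in vehicle, and 128, 1593 and 2919.9 in ISM012-042. Fabp4 stayed at 30.4 and 20.5 TPM in sham replicates 3 and 4, in which Adipoq was listed at 0. Lpl, the lipoprotein lipase, lay between 1.33 and 179 TPM, and Cd36, a fatty acid transporter, between 5.93 and 186 TPM. Gpihbp1, which anchors the lipoprotein lipase in capillaries, lay between 0.955 and 20.3 TPM. The 13 endothelial markers had summed TPM of 40.6 to 64.5 in sham, 63.8 to 111 in vehicle and 70.6 to 350.5 in ISM012-042, and none was at 0 in all libraries. Their part in these genes was not tested.

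The genes of triglyceride synthesis named next were detected in every library. Dgat1 and Dgat2, which both make triglyceride, lay between 19.6 and 47.1 TPM and between 15.1 and 114 TPM. Agpat2, an acyltransferase of an earlier step, lay between 53.0 and 149.7 TPM. Pck1, which supplies glycerol backbones in fat and makes glucose elsewhere, lay between 35.9 and 207 TPM. Gpd1, the cytosolic glycerol-3-phosphate dehydrogenase, lay between 5.63 and 63.9 TPM.

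Thrsp, a regulator of lipogenesis that responds to thyroid hormone and feeding (chromosome 7, 97412933 to 97417550), had a wider range. Its lowest, median and highest TPM were 0.55, 3.16 and 210.1 in sham, 0.262, 6.86 and 50.8 in vehicle, and 5.58, 7.99 and 24.5 in ISM012-042. Sham replicates 2 and 6 had 124 and 210.1 TPM, more than any library with colitis.

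The transcription factor genes Pparg and Cebpa lay between 20.2 and 90.1 TPM and between 14.9 and 44.5 TPM. Both were well expressed in libraries that listed Adipoq at 0. Of the receptors and transporters, Slc2a4, the insulin-regulated glucose transporter, lay between 2.76 and 16.3 TPM. Adrb3, the adrenergic receptor that triggers lipolysis, lay between 0.26 and 15.7 TPM. Acvr1c, an activin receptor, lay between 0.26 and 2.99 TPM. Car3, a carbonic anhydrase of fat and muscle (chromosome 3, 14863538 to 14872381), spanned 0.123 to 1248 TPM, and its group medians were 17.8 in sham, 173 in vehicle and 581 in ISM012-042. Sncg, a synuclein gene, lay between 11.6 and 73.7 TPM, and Lgals12, an adipocyte galectin, between 4.08 and 23.3 TPM. Ucp1, the uncoupling protein of brown fat, was listed at 0 in 15 of 18 libraries and at most at 0.126 TPM in the others.

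**Figure D2:**
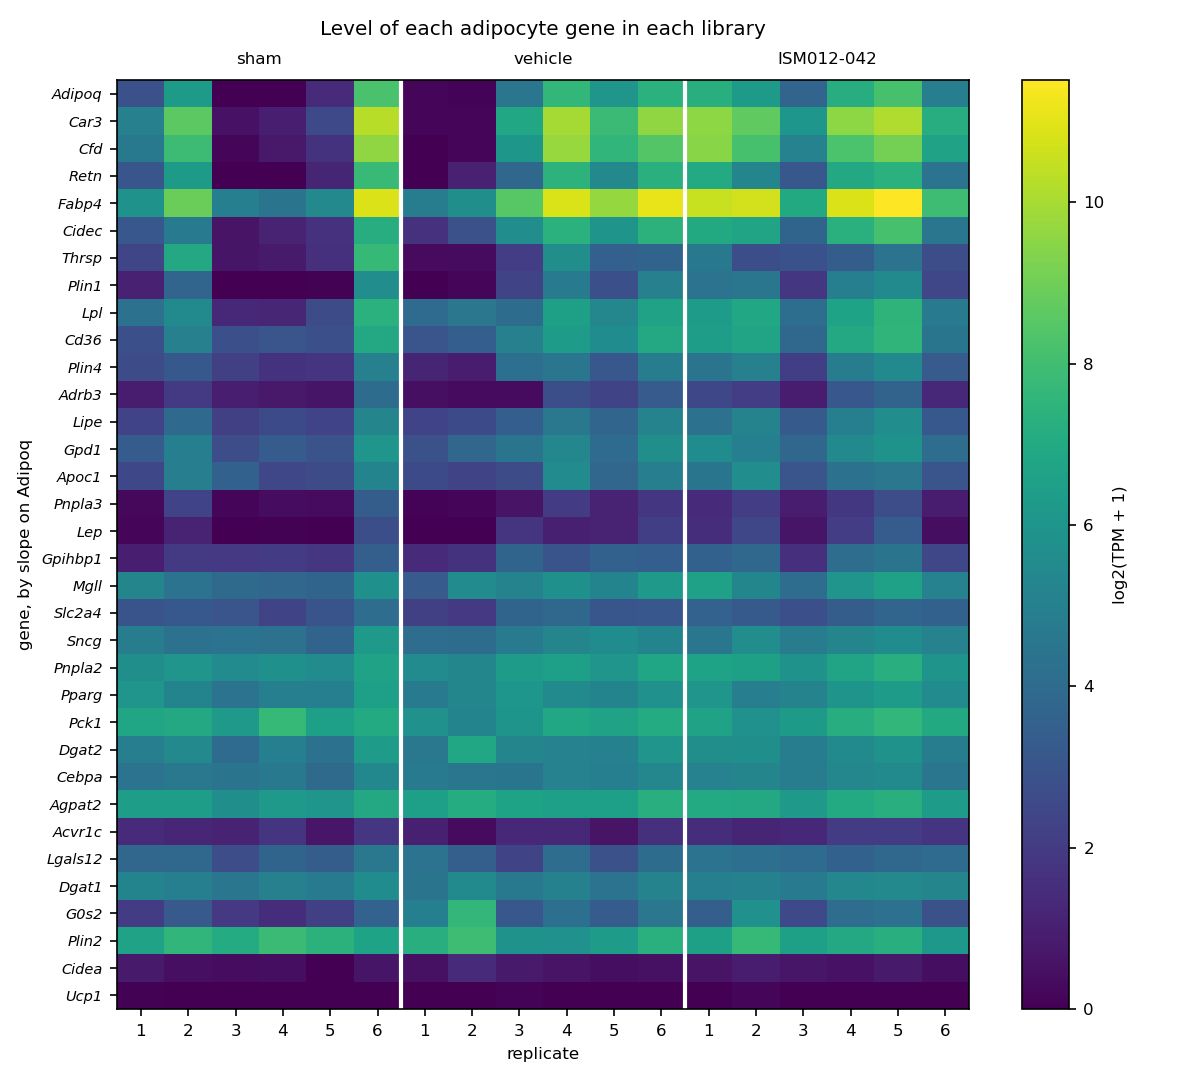
Level of the 34 genes (rows, by their slope on Adipoq, with the untested Cidea and Ucp1 last) in the 18 libraries (columns, by group and replicate) as log2(TPM + 1) in colour. The upper rows brighten and darken together from library to library, with sham replicate 6 bright and sham replicates 3 and 4 dark, while Plin2 is brightest in vehicle replicate 2, where Adipoq is at 0.078 TPM.

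The spread between libraries of a group was wide for these genes. The median residual SD of log2(TPM + 1) within groups was 1.06 for the 32 members tested and 0.366 for all 14129 genes tested, and 19 of the 32 lay above the 95th percentile of all genes. The same libraries held the extremes. Sham replicate 6 had the highest sham value for 30 of the 34 members, and ISM012-042 replicate 5 had the highest value of its group for 24. Vehicle replicates 6 and 4 were highest for 16 and 8 members. The lowest value was in ISM012-042 replicate 3 for 21 members, in sham replicate 3 for 18, and in vehicle replicates 1 and 2 for 17 and 10. Ties at 0, as for Adipoq in sham replicates 3 and 4 and for Ucp1, were counted for the first library only.

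The slope of each gene on Adipoq within groups describes which members varied together. It was fitted in limma with the group as a term, and is the change of log2(TPM + 1) per unit of Adipoq log2(TPM + 1). Of the 31 other members tested 20 rose with Adipoq at an adjusted p under 0.05 and none fell, where 0.821% of the 14128 genes tested rose. Over all genes 116 rose and 12 fell with Adipoq, and 233 rose and 84 fell under median-ratio scaling. The median slope was 0.29 for the members and -0.02 for all genes, and 30 of the 31 members had a positive slope under each of 4 scalings. The libraries share their tissue composition across genes, so the members are not independent of each other.

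Car3 had the steepest slope among the members, at 1.22 ± 0.04 (SE), and the smallest p of all genes. Cfd followed at 1.17 ± 0.05 and Retn at 0.95 ± 0.03. Lep, at 0.29 ± 0.05, and Apoc1, at 0.33 ± 0.06, were shallower, and on the log2(TPM + 1) scale a low gene such as Lep has less room to vary. Of the droplet genes Cidec had a slope of 0.74 ± 0.04, Plin1 of 0.68 ± 0.04 and Plin4 of 0.44 ± 0.05. Fabp4 rose with Adipoq at 0.79 ± 0.04, Lpl at 0.52 ± 0.07 and Cd36 at 0.50 ± 0.05. Thrsp, at 0.71 ± 0.07, was the steepest of the synthesis genes, and Gpd1 had 0.34 ± 0.04. Among the lipases the slopes were 0.35 ± 0.04 for Lipe, 0.31 ± 0.04 for Pnpla3 and 0.15 ± 0.02 for Pnpla2. Adrb3 rose at 0.37 ± 0.05 and Slc2a4 at 0.17 ± 0.03. The adjusted p of these genes lay at or below 0.00531.

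Gpihbp1, at 0.24 ± 0.06, and Sncg, at 0.17 ± 0.04, passed with adjusted p of 0.0434 and 0.0485. They passed in 16 and 10 of 35 other settings, against 35 of 35 for Car3 and Cidec. Mgll missed at 0.23 ± 0.05 with an adjusted p of 0.0526. Pparg and Cebpa, the adipogenic transcription factor genes, had slopes of 0.14 ± 0.04 and 0.09 ± 0.03 with adjusted p of 0.131 and 0.137. Dgat1, Dgat2, Agpat2, Pck1, Acvr1c and Lgals12 had slopes between 0.04 and 0.12 that did not pass. Plin2 had a slope of -0.08 ± 0.05 and G0s2 of 0.01 ± 0.10, neither of which passed.

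**Figure D3:**
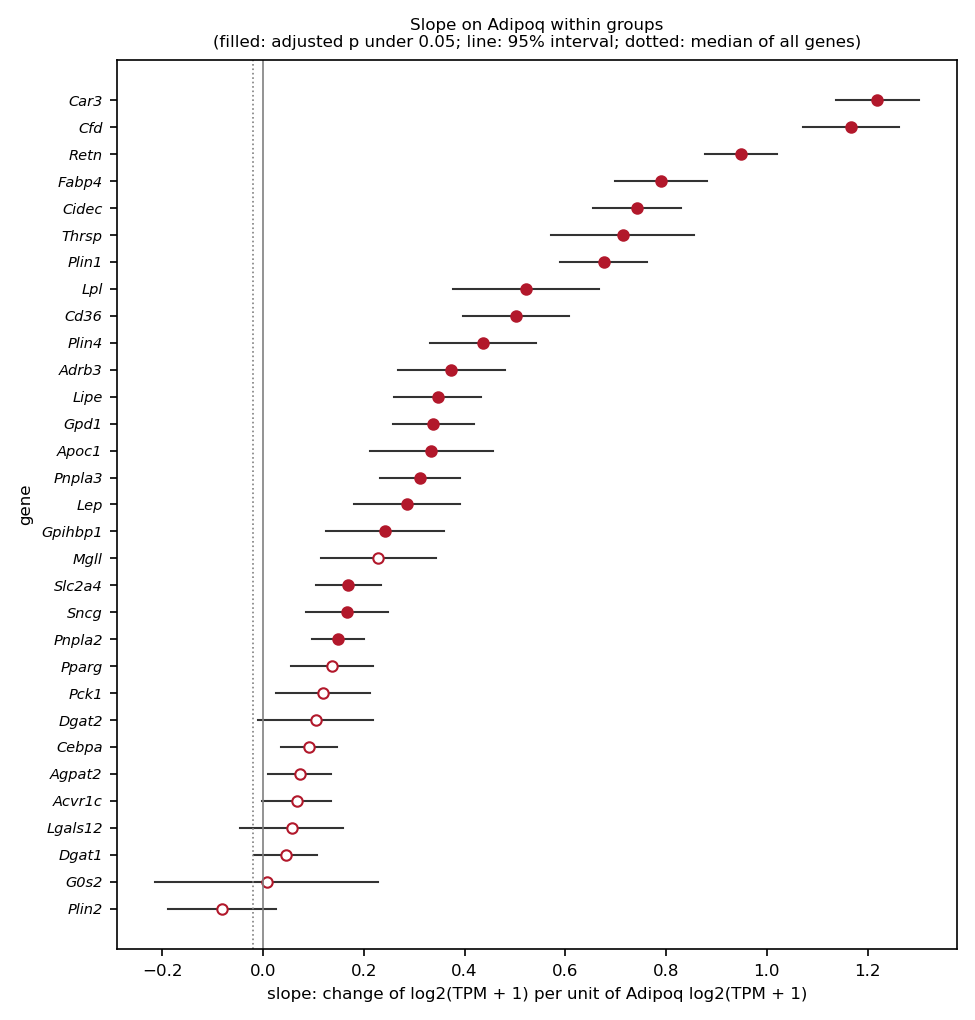
Slope of log2(TPM + 1) on Adipoq log2(TPM + 1) within groups (horizontal axis) for 31 members (rows), with 95% intervals not adjusted for the number of genes, filled where the adjusted p was under 0.05. The slopes run from -0.08 for Plin2 to 1.22 for Car3, and the dotted line marks the median of all genes at -0.02.

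Within single groups of 6 libraries the counts of passing members were smaller. They were 10 of 31 in sham, 9 in vehicle and 2 in ISM012-042, where 0.212%, 0.177% and 0.0142% of all genes rose in the same fits. The SD of Adipoq log2(TPM + 1) was 3.42 in sham, 3.39 in vehicle and 1.64 in ISM012-042. Car3 and Cidec passed in each group, with slopes of 1.18, 1.32 and 0.97 for Car3 and of 0.73, 0.69 and 1.04 for Cidec in sham, vehicle and ISM012-042. Without the 2 libraries farthest from the median Adipoq, sham replicates 3 and 4, 19 members rose and 0.637% of all genes did. With Hoxb13 as a further covariate, chosen after the data had been seen, 15 members and 0.432% of all genes rose, and with the mitochondrial share 18 members and 0.729% did. Hoxb13 itself had a slope of -0.53 ± 0.17 on Adipoq with an adjusted p of 0.194.

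Other genes of fat cells were read from a list of 45 that holds no member. Of 41 tested 15 rose with Adipoq and none fell, where 0.821% of all genes rose. The median slope of the 41 was 0.14, against -0.02 over all genes. The steepest were Adig, which promotes adipocyte differentiation, at 0.58 ± 0.04, and Mrap, a partner of the melanocortin receptor, at 0.54 ± 0.05. Slc27a1, a fatty acid transporter, rose at 0.29 ± 0.03 and Nat8l, which makes N-acetylaspartate, at 0.22 ± 0.03. Of 16 genes of brown and beige fat 8 were tested and 1 rose, Cox8b, at 0.37 ± 0.05. No gene passed among 11 of adipocyte progenitors, 10 of mesothelium, 13 of endothelium, 13 of epithelium, 9 of smooth muscle, 3 of skeletal muscle, 10 of macrophages, 10 of neutrophils, 8 of B cells and lymph nodes, 2 of pancreas and 8 of nerve and glia. Outside all lists the gene of smallest p was Cyp2e1, a cytochrome P450 of liver and fat, at 1.06 ± 0.05, and the others given here were Arxes2, Art3, Car5b, Fam213a, Cdo1 and Mmd with slopes of 0.22 to 0.35.

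The comparison of vehicle with sham asks what TNBS colitis did to these genes. None of the 32 members tested passed, where 4.46% of all genes did, and 1 member had an unadjusted p under 0.05, where 18.1% of all genes did. Adipoq differed by 1.17 ± 1.57 (SE, n = 6 per group, adjusted p 0.755), with a 95% interval of -2.12 to 4.47, so a change of several-fold in either direction lies inside the interval. Cidec differed by 2.07 ± 1.19 (adjusted p 0.387), Fabp4 by 1.70 ± 1.27 (0.525) and Plin1 by 0.76 ± 1.09 (0.774). The smallest adjusted p was that of G0s2, 0.0655, with a difference of 2.25 ± 0.67. Over the members 24 of 32 differences were positive, with a median of 0.42. Over all genes 5839 of 14129 were positive, with a median of -0.07.

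G0s2, which was chosen for these details after its values were seen, passed in some other settings. Among them were median-ratio scaling (adjusted p 0.0216), quantile normalization (0.0239), mitochondrial genes left out (0.0237), array weights (0.0240), and the fit without ISM012-042 replicate 2 (0.0456). More genes passed in general in the first 3 of these. Over all genes 46 rose and 584 fell in the main fit. With median-ratio scaling 511 rose and 1004 fell, with quantile normalization 540 and 948, and without mitochondrial genes 403 and 905. With Hoxb13 as a covariate, also chosen after the data had been seen, the differences of vehicle from sham turned negative for Adipoq (-0.29), Plin1 (-0.12), Cfd (-0.56), Lep (-0.15) and Retn (-0.23). With array weights Adipoq (-0.082) and Cfd (-0.45) turned negative. None of these values passed.

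The comparison of ISM012-042 with vehicle asks what the compound did within colitis. No member passed, and neither did any other gene (0%), while 1 member, Acvr1c, had an unadjusted p under 0.05, where 19% of all genes did. Acvr1c differed by 0.61 ± 0.23 with an adjusted p of 0.239. Adipoq differed by 1.95 ± 1.57 (adjusted p 0.417, 95% interval -1.34 to 5.25), Cidec by 1.09 ± 1.19 (0.535) and Fabp4 by 1.31 ± 1.27 (0.487). Positive differences were found for 30 of 32 members, with a median of 0.61, but also for 13011 of 14129 genes, with a median of 0.30. Median-ratio scaling moved the median of all genes to 0.01, and 25 of the 32 members were then positive with a median of 0.36.

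ISM012-042 was also compared with sham, which shares its libraries with both other comparisons. No member passed, where 1.42% of all genes did. An unadjusted p under 0.05 was found for 11 of 32 members and for 20.8% of all genes. Cidec had the smallest adjusted p among the members, 0.172, with a difference of 3.15 ± 1.19, and Adipoq differed by 3.13 ± 1.57 (0.257, 95% interval -0.17 to 6.42). Fabp4 differed by 3.01 ± 1.27 (0.207), Lpl by 2.31 ± 0.93 (0.193) and Gpihbp1 by 1.30 ± 0.52 (0.190). The median difference was 0.88 over the members and 0.21 over all genes. Differences were positive for 30 of 32 members and for 10894 of 14129 genes. With median-ratio scaling 28 members were positive with a median of 0.73, and the median of all genes was 0.02. With array weights, which count deviating libraries for less, 8 of the 32 members passed. They were Cidec, Pnpla2, Mgll, Cd36, Gpihbp1, Agpat2, Cebpa and Acvr1c. The count over all genes went from 200 to 3260 of 14129 in the same setting.

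**Figure D4:**
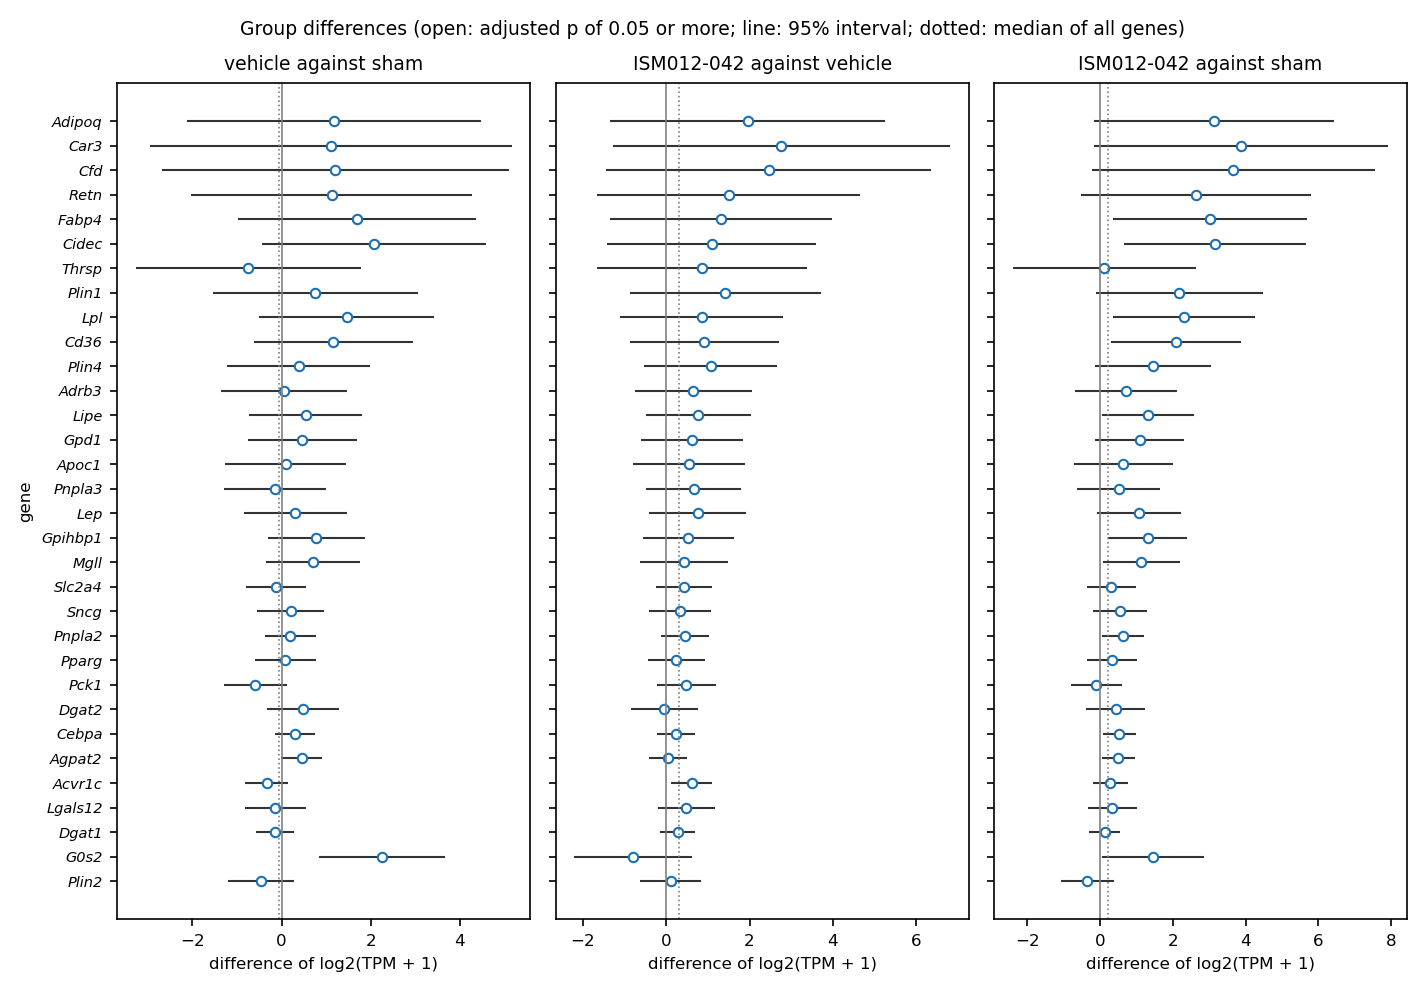
Difference of log2(TPM + 1) between groups (horizontal axes) for 32 members (rows) in the 3 comparisons, with 95% intervals not adjusted for the number of genes and a dotted line at the median of all genes. All points are open because no adjusted p was under 0.05, and the intervals of Adipoq, Car3 and Cfd are the widest.

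The groups were then compared at equal Adipoq, by adding the Adipoq level of each library to the fit as a covariate. This fit gives a gene the same slope in all groups, so its difference is taken as equal at every Adipoq level. Whether slopes differ between groups was not tested. Of 31 members 1 passed in vehicle against sham, where 3.82% of all genes did, a share near that background. That member was Cidec, at 1.19 ± 0.28 with an adjusted p of 0.0220. Its call was lost without sham replicate 2 (adjusted p 0.0802) and without vehicle replicate 2 (0.0801). No member passed in ISM012-042 against vehicle, where 0% of all genes did, or in ISM012-042 against sham, where 0.467% did. With Plin1 in place of Adipoq as the covariate, Cidec and Fabp4 passed in vehicle against sham. Over all genes 539 passed in this comparison in the main fit, and 503 to 1444 in 3 other settings that include the Plin1 one.

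Thrsp, chosen for these details after its values were seen, had the lowest difference at equal Adipoq among the members in both comparisons with sham. The differences were -1.58 ± 0.45 in vehicle against sham (adjusted p 0.0591) and -2.11 ± 0.49 in ISM012-042 against sham (0.0700), and neither passed. In ISM012-042 against vehicle the difference was -0.53 ± 0.46 (0.402). Sham replicate 6 had 298 TPM of Adipoq and 210.1 of Thrsp, whereas ISM012-042 replicate 5 had 287 and 19.8. Sham replicate 2 had 76.4 TPM of Adipoq and 124 of Thrsp, whereas ISM012-042 replicate 2 had 77.1 and 5.86. In vehicle the highest Thrsp, 50.8 TPM, was in replicate 4, which had 197 TPM of Adipoq. Where Adipoq was listed at 0, in sham replicates 3 and 4, Thrsp was 0.55 and 0.763 TPM. Vehicle replicates 1 and 2, with Adipoq close to 0, had 0.269 and 0.262. The wide gaps in Thrsp thus lay between libraries with high Adipoq, not between those near 0. Both differences from sham passed under median-ratio scaling, with adjusted p of 0.0356 and 0.0234. When 1 library was left out, the first passed in 3 of 18 fits and ranged from -1.79 to -1.23, with adjusted p from 0.0403 (without ISM012-042 replicate 3) to 0.2003 (without sham replicate 6). The second passed in 2 of 18 fits and ranged from -2.46 to -1.68, with adjusted p from 0.0340 (without ISM012-042 replicate 3) to 0.250 (without sham replicate 2).

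**Figure D5:**
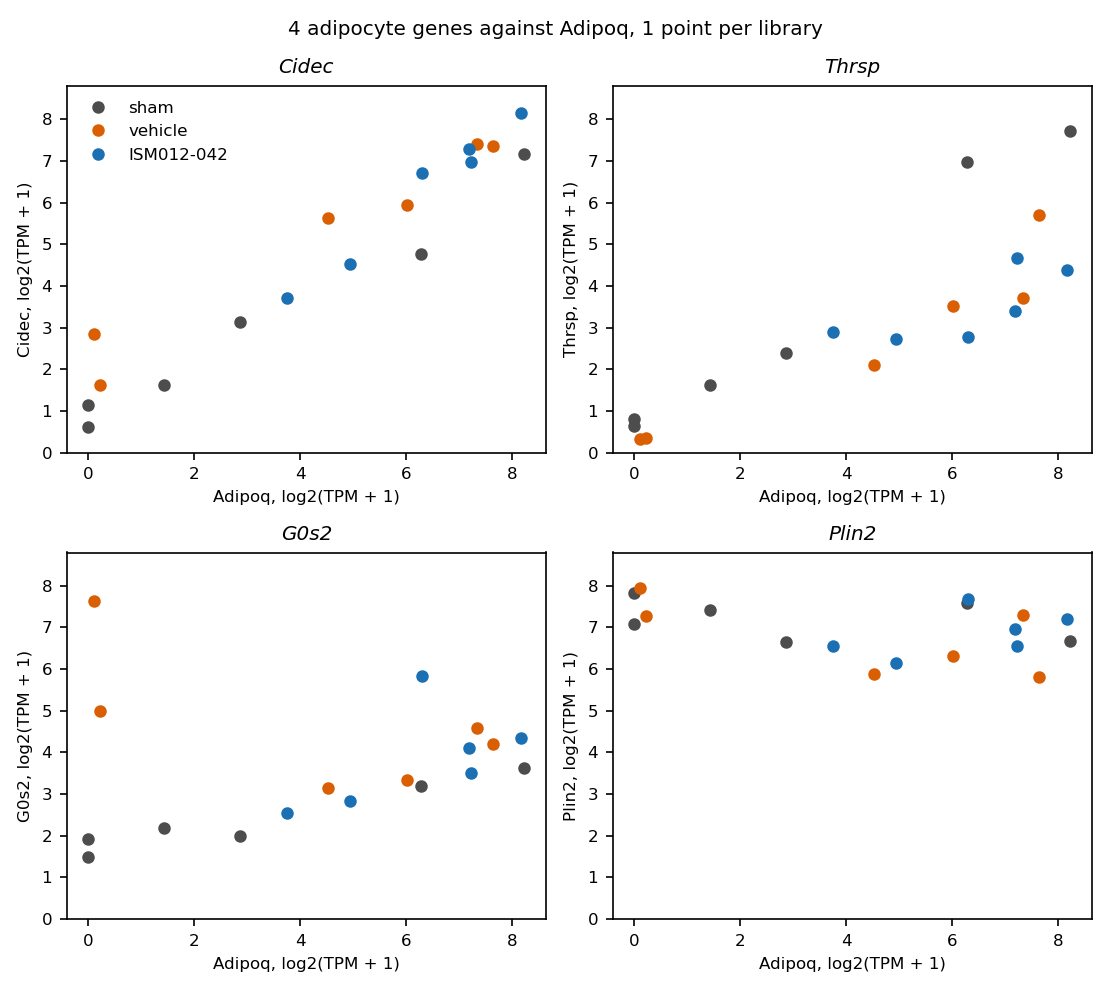
Levels of Cidec, Thrsp, G0s2 and Plin2 (vertical axes) against Adipoq (horizontal axis), both as log2(TPM + 1), 1 point per library coloured by group. Cidec follows Adipoq in all groups, the sham replicates 2 and 6 stand above the other libraries in Thrsp with 124 and 210.1 TPM, vehicle replicate 2 is highest in G0s2 with 198 TPM, and Plin2 shows no common order with Adipoq.

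Few of the other genes of fat cells passed between groups. In vehicle against sham none of the 41 tested rose and 1 fell, Pcx, a pyruvate carboxylase gene, at -1.17 ± 0.29 with an adjusted p of 0.0249. In the brown and beige list Ppargc1a, a coactivator of mitochondrial genes, fell at -1.61 ± 0.31 (0.00718) and Cox7a1 at -0.65 ± 0.18 (0.0471) in the same comparison. Over all genes 4.46% passed in this comparison. The slopes on Adipoq were -0.01 for Pcx, -0.04 for Ppargc1a and -0.04 for Cox7a1, and none of them passed. No gene of either list passed in the other group comparisons.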

How the data were processed

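The deposited table holds TPM made by the authors for 18 libraries of mouse colon RNA. The submitters' processing notes name mm10 and DRAGEN 4.0.3. The sources used here do not give the annotation, how reads were counted or whether strand was used. TPM keeps no record of depth, so the precision of single values is unknown beyond the spread between libraries. Each of the 18 columns was matched to its sample by name, and groups came from the titles and the series' design text. Coordinates and promoters came from RefSeq tables on GRCm38.p6.

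Values were taken as log2(TPM + 1), so differences understate the change of low genes. A gene entered the fit if 6 or more libraries had a TPM of 1 or more. The fit used limma (version 3.58.1, R version 4.3.3) with trend and robust empirical Bayes, all 18 libraries in 1 fit, and two-sided p adjusted by Benjamini-Hochberg over all genes tested (threshold 0.05). One fit gave the 3 group differences. Another added Adipoq as a covariate, with a slope shared by the groups, and gave slopes and group differences at equal Adipoq. The steps were tested on simulated data.

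The members and the 13 lists were chosen with earlier results of these data known. All members are given. Detailed values follow a rule, which took Adipoq, Plin1, Cidec, Fabp4, Cfd, Lep, Retn and Lipe, passing members, up to 4 genes per list by p, and outside the lists the 8 genes of smallest p and positive slope with a mean of at least 5 TPM, without predicted genes; 1 gene under this rule is not reported here. Car3, Thrsp and G0s2 were added after their values were seen. Alternatives were other pseudocounts, filters and scalings, array weights, plain empirical Bayes, a replicate block, Plin1 as covariate, fewer groups, and leaving out each library. Hoxb13 and the mitochondrial share as covariates were added after the data had been seen.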

Additional observations from a re-analysis of the deposited data

Results flagged for a closer look

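Of 102 sets of 6 libraries (34 genes in 3 groups) 4 held a value that stood apart from the other 5 by Dixon's gap test, where chance gives about 1 in 20, or 5.1. Mgll was at 8.85 TPM in vehicle replicate 1, below the other vehicle libraries. The remaining 3 were single nonzero values of Ucp1, a gene otherwise listed at 0 in its group, at 0.06 TPM in sham replicate 1, 0.092 in vehicle replicate 3 and 0.126 in ISM012-042 replicate 2. They lie far below a TPM of 1. With the other 5 values at 0 any nonzero value is flagged, so these 3 flags cannot be set against the 5.1 of chance.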

How the results depend on the processing

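No member passed in ISM012-042 against vehicle under any of 12 other settings or 18 fits that each left out a library. In vehicle against sham the count of 0 became 1 (G0s2) with median-ratio scaling, quantile normalization, mitochondrial genes left out and array weights. It lay between 0 and 1 when a library was left out. Over all genes 46 rose and 584 fell in the main fit, against 511 and 1004 with median-ratio scaling. They were 540 and 948 with quantile normalization, and 403 and 905 without mitochondrial genes. In ISM012-042 against sham the count of 0 became 8 of 32 with array weights, where the count over all genes went from 200 to 3260 of 14129. The differences of vehicle from sham that changed sign were Adipoq (-0.082) and Cfd (-0.45) with array weights, and Adipoq (-0.29), Plin1 (-0.12), Cfd (-0.56), Lep (-0.15) and Retn (-0.23) with Hoxb13 as a covariate. The cause was not tested.

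The 20 members that rose with Adipoq became 10 within sham, 9 within vehicle and 2 within ISM012-042, where fewer libraries were fitted and 30, 25 and 2 of all genes rose (116 in the fit of all libraries), and lay between 16 and 21 when a library was left out. At equal Adipoq the count in vehicle against sham went from 1 to 3 with median-ratio scaling and 2 with Plin1 as covariate, and lay between 0 and 2 when a library was left out. In ISM012-042 against sham it went from 0 to 1 with median-ratio scaling, and lay between 0 and 1 when a library was left out. Over all genes these counts were 539 and 66 in the main fit, and 503 to 1444 and 36 to 350 under other settings.

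The deviations of libraries with the same replicate number had correlations of -0.38 to 0.61, 6 of 18 over 0.1. No library was closest to its own number in both other groups. The labels do not say whether the numbers pair the samples, and such correlations cannot decide it. With the number as a replicate block, 1 member (G0s2) passed in vehicle against sham, 16 rose with Adipoq, and at equal Adipoq G0s2 passed in vehicle against sham in place of Cidec, which had an adjusted p of 0.0511.

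Counts over all genes moved more. Vehicle against sham had 630, and 361 to 1515 under other settings (336 to 964 without 1 library). ISM012-042 against sham had 200, and 109 to 3260 (76 to 328). The slope had 128, and 2 to 317 (63 to 235). At equal Adipoq vehicle against sham had 539, and 503 to 1444 (222 to 865), ISM012-042 against sham had 66, and 36 to 350 (18 to 99), and ISM012-042 against vehicle had 0, and up to 329 without vehicle replicate 6. Depth is unknown, so counting error cannot be given for low members such as Cidea, Ucp1 and Lep.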
